A study of Mus musculus with 3 samples.

Results

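Cxcl13 and Cxcr5, a chemokine and its receptor, were followed across the immune cells of the inflamed sciatic nerve. Both were chosen by name, and they are 2 of the 32285 genes in the deposited matrices. The source was single-cell RNA sequencing of sciatic nerve CD45+ cells (CD45 marks immune cells) from NOD.AireGW/+ mice with neuropathy. These mice combine the autoimmunity-prone NOD strain with 1 Aire allele of reduced function, and their peripheral nerves become inflamed without any treatment. Library 1 and library 2 held the cells of 1 mouse each and library 3 those of 2 mice in a pool, with no record of which cell came from which mouse. All libraries belong to the same group and no library from unaffected mice was analysed here, so cell classes were compared with each other and no effect of disease was measured.

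CXCL13 guides cells that carry CXCR5 into B cell follicles. In lymph nodes and spleen it is made mainly by follicular stromal cells, including follicular dendritic cells, and CXCR5 marks B cells and T follicular helper (Tfh) cells, the CD4 T cells that help B cells in follicles. In inflamed tissues macrophages and some CD4 T cells can also make the chemokine, among them T peripheral helper (Tph) cells, which help B cells without carrying CXCR5. In the GRCm38 annotation Cxcl13 (ENSMUSG00000023078) lies on the plus strand of chromosome 5 at positions 95956951 to 95961068, and Cxcr5 (ENSMUSG00000047880) on the minus strand of chromosome 9 at positions 44511787 to 44561877.

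The 3 libraries held 3848, 8256 and 1533 cells after filtering, with medians of 3956, 4632.5 and 1726 UMIs per cell. Each UMI (unique molecular identifier) stands for 1 transcript that was captured. Levels are given as CPM, a gene's UMIs per 1000000 UMIs of all genes in a class, with exact 95% Poisson intervals, and shares of cells with exact 95% binomial intervals, both of which cover counting error only. Cells were put into classes by UMIs of marker genes that did not include Cxcl13 or Cxcr5. A macrophage with T or B cell UMIs was left unassigned, as was a cell with both T and B cell UMIs. Lymphocytes with fewer than 3 C1q UMIs were kept in their class. Of the 13637 cells, the gates held 1514 macrophages with complement C1q transcripts (C1q macrophages), 266 monocytes, 160 dendritic cells, 194 plasmacytoid dendritic cells, 520 B cells, 139 plasma cells, 1612 conventional CD4 T cells, 1020 Foxp3 T cells, 2176 CD8 T cells and 116 NK cells. Library 2 held 1508 of the C1q macrophages and libraries 1 and 3 held 3 each. From 7 to 36 cell barcodes were shared between pairs of libraries.

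Cxcl13 was highest in C1q macrophages. These cells held 40 Cxcl13 UMIs or 1359 CPM (971 to 1851) in the 3 cells of library 1, 52703 UMIs or 4768 CPM (4727 to 4809) in library 2, and 1 UMI or 161 CPM (4.06 to 894) in the 3 cells of library 3. All other classes of library 2 lay between 3.57 CPM in plasma cells and 28.5 CPM (17.4 to 44.1) in B cells. Monocytes, the blood-derived precursors of many tissue macrophages, held 6.63 CPM in library 1, 10.6 CPM in library 2 and 0 UMIs in library 3, which allows up to 25.5 CPM. Dendritic cells, which present antigen to T cells, held 0 UMIs in library 1, which allows up to 19.5 CPM, 10.4 CPM in library 2 and 0 UMIs in library 3, which allows up to 43.4 CPM. In the library with enough macrophages to measure, the macrophage level thus lay far above every other class.

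**Figure D1:**
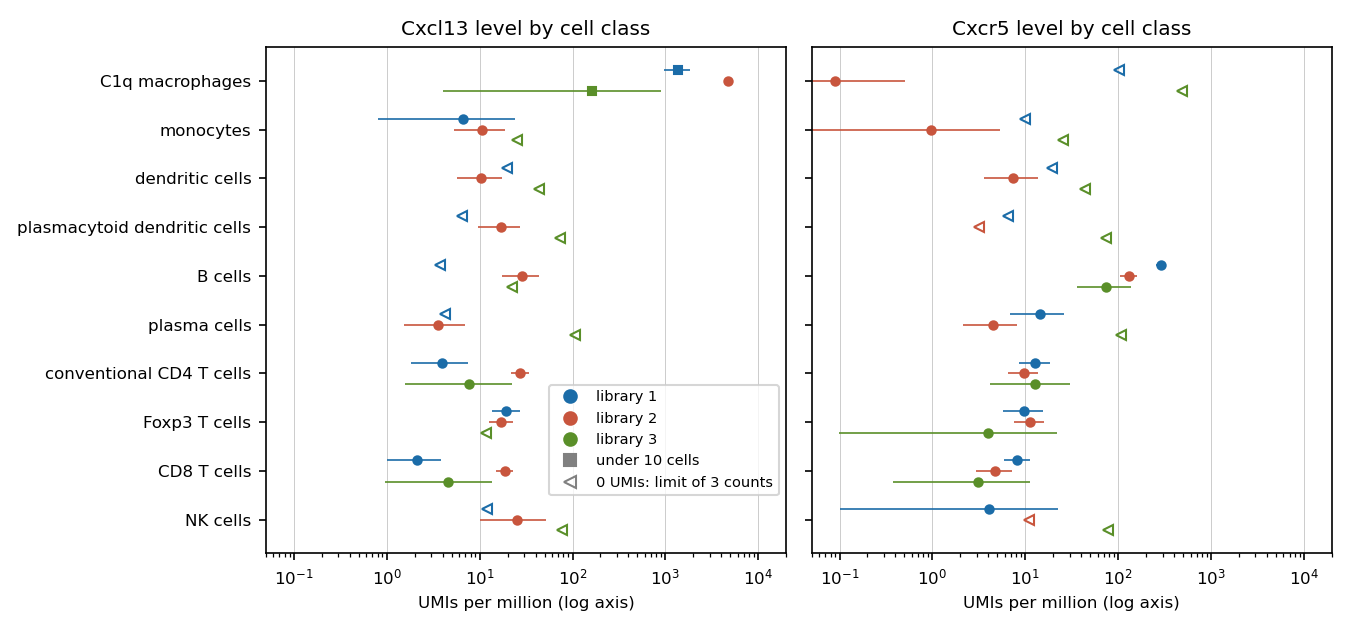
Levels of Cxcl13 (left) and Cxcr5 (right) as CPM on a log axis for 10 cell classes, with 1 symbol per library and exact 95% Poisson intervals. Squares are measured values from fewer than 10 cells, and open triangles stand at the level that 0 UMIs allows (3 counts). The C1q macrophages of library 2 stand at 4768 CPM of Cxcl13, and B cells hold 290, 130 and 74.6 CPM of Cxcr5 in libraries 1 to 3.

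Within library 2 the Cxcl13 level of C1q macrophages was 451-fold (252 to 904) that of monocytes, 458-fold (273 to 838) that of dendritic cells and 223-fold (196 to 254) that of B, conventional CD4, Foxp3 and CD8 cells summed as lymphocytes. In library 1 the 3 macrophages held 205-fold (53.1 to 1750) the level of monocytes, whose value rests on 2 UMIs, at least 69.7-fold that of dendritic cells and 239-fold (155 to 366) that of lymphocytes. Of these 3 macrophages only 2 had a Cxcl13 UMI, and 1 cell held 24 of the 40 UMIs. For library 3 the fold over lymphocytes was 38.2, with an interval of 0.831 to 315 that includes no difference. So the direction was the same in both libraries whose counts could show one, although in library 1 it rests on 2 cells.

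Over class sums per library, tested with edgeR's quasi-likelihood test and the library as a block, Cxcl13 was higher in C1q macrophages than in monocytes by 8.89 on the log2 scale (SE 0.69, adjusted p = 1.131e-09). In that comparison 6.44% of 10713 genes were called at an adjusted p under 0.05, 4.04% higher in macrophages and 2.4% lower. The difference from dendritic cells was 9.20 (SE 0.71, adjusted p = 2.075e-10), with 21.3% of genes called (13.2% higher, 8.06% lower), and that from lymphocytes 8.27 (SE 0.41, adjusted p = 2.054e-15), with 45% called (25.3% higher, 19.7% lower). Since sums of fewer than 10 cells were left out, the macrophage side was the sum of library 2 alone, and its spread was assumed to be that of the other classes. With sums of at least 3 cells, an alternative chosen after the data were seen, macrophages of all 3 libraries entered and the log2 differences were 8.55, 8.90 and 7.87, all called.

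Nearly all Cxcl13 transcripts of library 2 were in cells that met the C1q gate. Of its 111415 Cxcl13 UMIs, 47.3% were in gated C1q macrophages and 52.1% in unassigned cells that met the C1q gate but carried T or B cell UMIs. Each of the other classes held at most 0.131%, and unassigned cells outside the C1q gate 0.251%. Libraries 1 and 3 held only 222 and 17 Cxcl13 UMIs. In library 1, C1q macrophages held 18.0% of them and cells that met the C1q gate with T or B cell UMIs 32.9%. These shares came from 2 of 3 and 8 of 27 cells, and 1 of the 8 held 32 of the 73 UMIs of its group. In library 3, 9 of the 17 UMIs were in unassigned cells outside the C1q gate. Fewer cells of a type could not be told apart here from weaker recovery of that type in the sort.

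Cxcl13 varied widely among C1q macrophages. Among the 1508 cells of library 2, 608 (40.3%) had 0 Cxcl13 UMIs, 129 had 1, 175 had 2 to 9, 417 had 10 to 99 and 179 had 100 or more. The median was 2 and the highest cell had 616. The 151 cells with most Cxcl13 held 58.9% of the Cxcl13 UMIs. To set depth equal, each cell was thinned to 1000 UMIs at random, and 680 of 1475 macrophages (46.1%, 43.5 to 48.7) then had a Cxcl13 UMI, against 59.7% of 1508 before thinning. In CD8 T cells of the same library, taken for comparison, 24 of 991 thinned cells (2.42%) had one, against 7.38% before thinning. The median depths of the unthinned cells were 7098 UMIs in macrophages and 3465 in CD8 T cells. Detection therefore covered less than the whole macrophage class and lay well above the level in T cells.

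**Figure D2:**
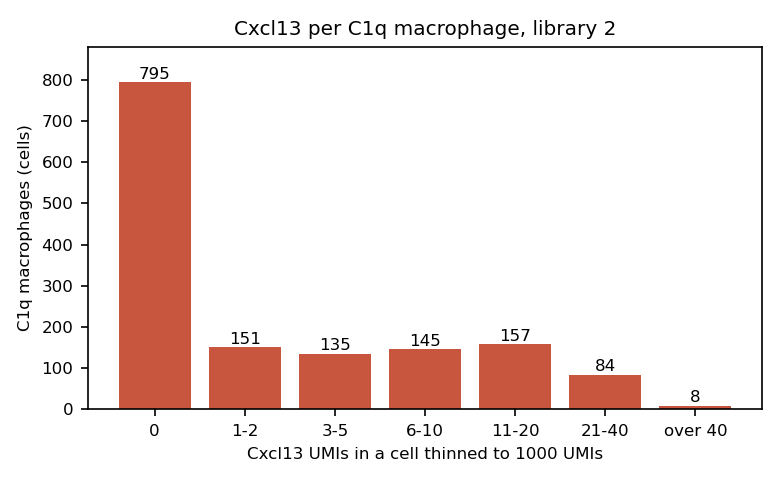
Number of C1q macrophages of library 2 (bars, 1475 cells) by their Cxcl13 UMIs after each cell was thinned to 1000 UMIs. The bar at 0 holds 795 cells, and cells with 1 or more spread over a wide range, with 157 cells at 11 to 20 and 8 cells above 40.

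The few Cxcl13 UMIs of lymphocytes in library 2 were set beside other macrophage transcripts. Cxcl13 stood at 27.3 CPM (21.8 to 33.8) in conventional CD4 T cells, 17.2 CPM in Foxp3 T cells, 18.8 CPM in CD8 T cells and 25.4 CPM in NK cells. For every 100 UMIs of Ccl8, another macrophage chemokine, there were 35.8 Cxcl13 UMIs in C1q macrophages, 51.5 in conventional CD4 T cells, 42.2 in Foxp3 T cells, 45.8 in CD8 T cells, 45.5 in B cells and 46.7 in NK cells. The shares of thinned cells with a Cxcl13 UMI were alike too, at 3.34% of conventional CD4 T cells, 3.08% of Foxp3 T cells and 2.48% of B cells. Relative to Apoe the classes were less alike, with 14.9 Cxcl13 UMIs per 100 of Apoe in C1q macrophages, 8.93 in conventional CD4 T cells, 7.34 in Foxp3 T cells, 8.26 in CD8 T cells, 3.19 in B cells and 22.6 in NK cells. How much of these low levels was free macrophage RNA and how much was expression by the lymphocytes was not tested. Monocytes stood apart, with 11.2 Cxcl13 UMIs per 100 of Ccl8.

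In the libraries with few macrophages the T cell level was lower. Conventional CD4 T cells held 3.97 CPM of Cxcl13 (1.82 to 7.54) in library 1 and 7.71 CPM (1.59 to 22.5) in library 3, from 9 and 3 UMIs. CD8 T cells held 2.11 and 4.61 CPM. B cells of library 1 held 0 Cxcl13 UMIs in 204 cells, which allows up to 3.73 CPM, and those of library 3 held 0 in 74 cells, which allows up to 22.4 CPM. Between conventional CD4 and CD8 T cells Cxcl13 differed by 0.55 on the log2 scale (SE 0.51), which edgeR did not call (adjusted p = 0.6701). An exception was the 19.4 CPM of Foxp3 T cells in library 1, of whose 36 UMIs 34 were in 1 cell.

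The subsets of conventional CD4 T cells named for B cell help did not stand out for the chemokine. Cells with UMIs of both Pdcd1 (the receptor PD-1) and Icos (a costimulator) held 2.36, 22.2 and 0 CPM of Cxcl13 in libraries 1 to 3, and cells with neither held 0, 50.3 and 35.9 CPM. Among cells with Pdcd1, those with Cxcr6 (a chemokine receptor of tissue T cells) held 3.05 and 34.4 CPM in libraries 1 and 2, and those without 4.27 and 17.0 CPM. The difference was 0.70 (SE 0.60, edgeR adjusted p = 0.7405). Cells with Il21, a cytokine that drives B cells, held 7.14 and 26.9 CPM against 3.25 and 27.4 CPM in cells without, a difference of 0.19 (SE 0.43, adjusted p = 0.9116). None of the subsets lay above its counterpart in every library.

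The genes whose pattern was most like that of Cxcl13 over the 26 class sums were led by complement genes. The Pearson correlation of log2(CPM + 1) was 0.94 for C1qb, 0.90 for C1qa and 0.78 for C1qc, all part of the macrophage gate. Since most other gates also kept C1q UMIs low, the likeness of these genes was largely set by the gates. Outside the gate, Ccl8 stood at 0.83 and Saa3 (a serum amyloid) at 0.75. Ms4a7, Itm2b, Ddrgk1, Gpnmb and Trem2 followed at 0.73 to 0.60. The sums share 3 libraries and 1 macrophage sum, so the values are a description over 5466 genes.

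What else the Cxcl13-positive macrophages held was compared within library 2, between the 680 thinned cells with a Cxcl13 UMI and the 795 without. Before thinning 199 of the 795 had a Cxcl13 UMI, so Cxcl13-negative here stands for low or absent. Cxcl13 itself stood at 10092 CPM in the positive and 139 CPM in the negative cells. Median depths were 7398 and 6942 UMIs. This was 1 library, so no test was made and the intervals again cover counting error only. Of 4325 genes with a mean of at least 20 CPM, 6 (0.139%) were at least 2-fold higher in the Cxcl13-positive cells and 30 (0.694%) at least 2-fold lower. In other respects the cells were close, with H2-Aa (a major histocompatibility complex class II chain) at 19039 and 17852 CPM and Apoe (apolipoprotein E) at 34762 and 29520 CPM.

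The genes higher in the Cxcl13-positive cells included surface receptors and a chemokine. Cd81, a tetraspanin, stood at 123 CPM against 46.3 CPM, or 2.66-fold (2.31 to 3.08). Cd72, a receptor shared with B cells, stood at 837 against 386 CPM, or 2.17-fold (2.06 to 2.28). Ccl8 stood at 18713 against 8678 CPM, or 2.16-fold (2.13 to 2.18). Mrc1, the mannose receptor of tissue-resident macrophages, stood at 45.4 against 19.9 CPM, although other genes of resident macrophages did not all follow, as given below. Differences under 2-fold ranked next, in Clec4a2, Clec4a1 and Clec4a3 (lectin receptors, at 146, 168 and 178 CPM against 73.5, 91.8 and 103 CPM), Tmem119 (117 against 62.1 CPM), C4b (complement, 204 against 117 CPM), Vcam1 (an adhesion molecule, 132 against 75.7 CPM) and Art2b (148 against 87.7 CPM).

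Genes of monocytes were lower in the Cxcl13-positive cells. Of the 10 genes on the monocyte list 7 reached 20 CPM, and 5 of them were at least 2-fold lower, with a median of -1.89 on the log2 scale against -0.05 over all genes. Ly6c2, a surface protein of inflammatory monocytes, stood at 10.5 against 76.7 CPM, Ccr2, the receptor by which monocytes enter tissue, at 15.6 against 59.6 CPM, and Plac8 at 27.1 against 164 CPM. Chil3 and S100a4 stood at 6.82 and 19.1 CPM against 37.0 and 73.6 CPM. Plac8 was detected in 35 of 680 positive and 182 of 795 negative cells, so the difference did not rest on a few cells.

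The lists of tissue macrophage programmes moved less. On the lipid-handling list 1 of 12 genes at 20 CPM or more, Gpnmb (a lysosomal glycoprotein), was at least 2-fold lower, at 249 against 695 CPM, and the median was -0.28. On the nerve-resident list 2 of 6 were at least 2-fold higher, Mrc1 and Ccl8, and Retnla was lower, at 7.21 against 222 CPM, with 84.3% of its UMIs in 5 cells. Of its genes with a mean under 20 CPM, Timd4 was lower, at 3.90 against 26.3 CPM, in 12 of 680 and 74 of 795 cells. Clec10a was lower too, at 7.21 against 14.6 CPM. The list was thus split. None of 14 macrophage chemokines other than Ccl8 reached 2-fold, nor did any of 8 cytokines, 10 interferon gamma response genes and 7 class II genes, whose medians were -0.17, -0.10 and 0.09. Cxcl9, an interferon-induced chemokine that binds CXCR3, stood at 920 against 700 CPM.

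**Figure D3:**
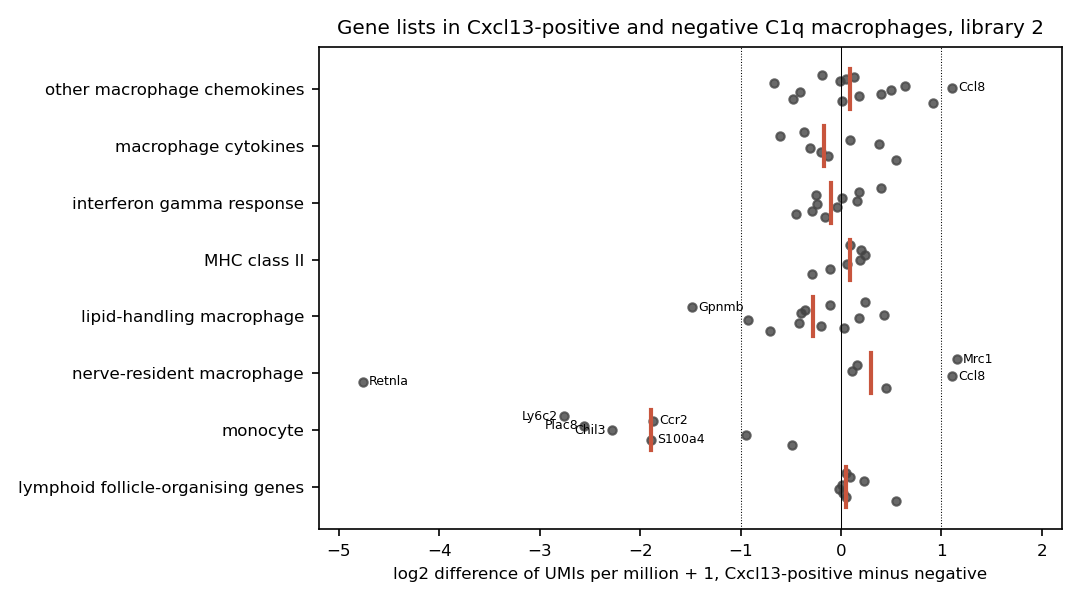
Log2 difference of CPM + 1 between Cxcl13-positive (680) and Cxcl13-negative (795) C1q macrophages of library 2 for genes of 8 lists with a mean of at least 20 CPM (1 point per gene, red bar at the median, dotted lines at 2-fold). The monocyte list lies lowest, with a median of -1.89, and the points beyond 2-fold are named.

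Among the other large differences, those of immunoglobulin genes were carried by few cells. Igkv3-4, Igha and Igkc, which plasma cells express, were lower in Cxcl13-positive cells, with 94.0%, 92.0% and 83.4% of their UMIs in 5 cells each. Apoc2, an apolipoprotein, was detected in 18 positive and 120 negative cells, at 5.26 against 101 CPM. S100a6, Lsp1 and Gstp1 stood at 78.7, 30.0 and 30.4 CPM against 250, 89.1 and 69.9 CPM.

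Split further, macrophages with 0, 1 to 2, 3 to 9 and 10 or more Cxcl13 UMIs per 1000 numbered 795, 151, 252 and 277. Ccl8 was higher already at the lowest Cxcl13 count and then stayed level, at 8678, 19698, 19311 and 17693 CPM. Cd72 stood at 386, 413, 730 and 1153 CPM, so it was higher mainly in the cells with more Cxcl13. Gpnmb stood at 695, 594, 205 and 97.3 CPM and Lgals3, a galectin of macrophages, at 1241, 1260, 623 and 344 CPM. Both were therefore lowest in the macrophages richest in Cxcl13, and between the groups with 0 and with 1 to 2 Gpnmb was slightly lower while Lgals3 was alike. Ly6c2 stood at 76.7, 29.7, 5.07 and 4.59 CPM. Plac8 was lowest at 3 to 9 Cxcl13 UMIs, at 164, 43.2, 10.7 and 31.7 CPM.

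**Figure D4:**
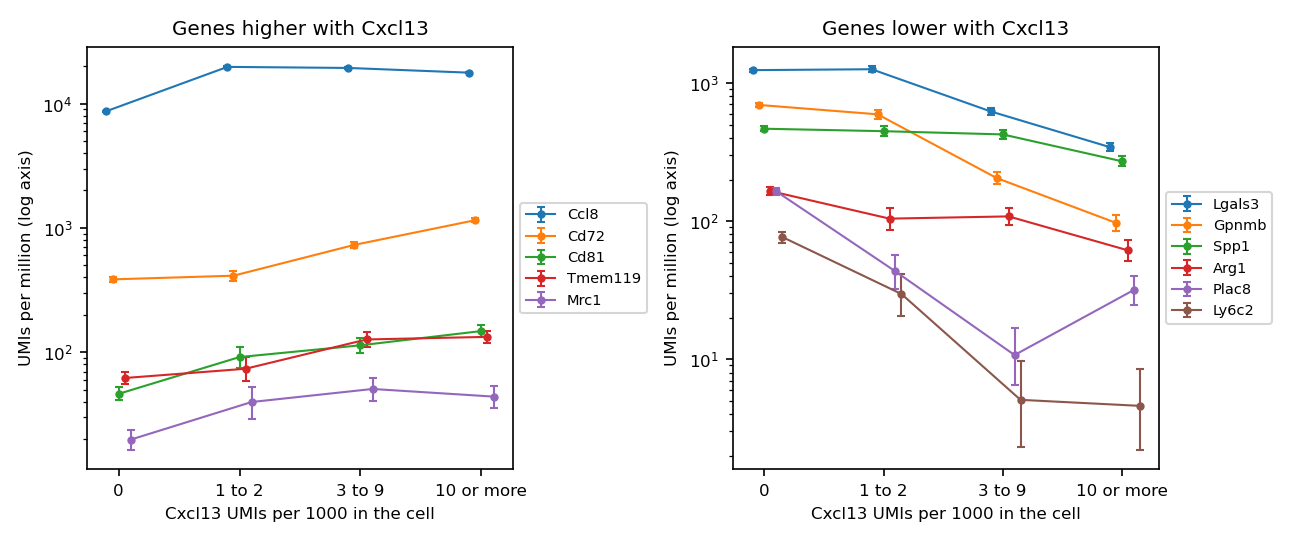
Levels as CPM (log axis) with exact 95% Poisson intervals in C1q macrophages of library 2 grouped by Cxcl13 UMIs per 1000, for genes higher (left) and lower (right) in Cxcl13-positive cells. Ccl8 rises from 8678 to 19698 CPM between the groups with 0 and with 1 to 2, whereas Gpnmb and Lgals3 fall between the groups with 1 to 2 and with 10 or more.

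Cxcl13 and Ccl8 were detected in overlapping sets of macrophages. After thinning, 579 of 1475 cells (39.3%) had both transcripts, 101 (6.85%) Cxcl13 alone, 437 (29.6%) Ccl8 alone and 358 (24.3%) neither. Ccl8 was common in both groups, in 85.1% of Cxcl13-positive and 55.0% of Cxcl13-negative thinned cells. Before thinning it was detected in 636 of 680 and 566 of 795, so absence at this depth can be a limit of detection.

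The wider genes of follicle organisation were divided between classes. Lta, which encodes lymphotoxin alpha, an inducer of Cxcl13 in follicular stroma, stood at 66.2, 70.7 and 43.7 CPM in conventional CD4 T cells and at 17.9, 8.97 and 3.07 CPM in CD8 T cells of libraries 1 to 3, without overlap, a difference of 2.34 (SE 0.25, edgeR adjusted p = 8.27e-07). In that comparison 8.27% of genes were called, 5.06% higher and 3.21% lower in conventional CD4 T cells. Ltb, its membrane partner, stood at 466, 535 and 246 CPM in B cells and 527, 500 and 324 CPM in conventional CD4 T cells. Ltbr, their receptor, stood at 56.6 CPM in C1q macrophages of library 2 and at 63.0, 68.2 and 51.0 CPM in monocytes, and was higher in macrophages than in lymphocytes by 4.35 (SE 0.27, adjusted p = 6.19e-13). Tnfsf14, another ligand of this receptor, was also called higher in macrophages than in lymphocytes.

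Between C1q macrophages and monocytes the 19 follicle-organising genes tested had a median log2 difference of 0.04, against 0.16 over all genes. Besides Cxcl13, Tnfsf13b (BAFF, a B cell survival factor) was among those higher in macrophages. Tnfsf13b stood at 47.9 CPM in macrophages of library 2 and at 3.32, 19.2 and 0 CPM in monocytes, a difference of 1.90 (SE 0.38, adjusted p = 0.002085). Against lymphocytes 9 of the 19 were called higher in macrophages, Cxcl13 and Ltbr among them, and 7 lower, including Cxcr5, Lta and Ltb, where over all genes 25.3% were called higher and 19.7% lower. Ccl21a, a chemokine of lymph node stroma, had 0 UMIs in C1q macrophages, and Ccl19 stood at 2.71 CPM there. Genes of stroma and follicular dendritic cells (Col1a1, Col1a2, Dcn, Lum, Pdpn, Madcam1 and Enpp2) were at 1.88 CPM or less over each whole library. Of 7 Schwann cell and endothelial genes Pmp22 reached 60.1 CPM in library 2, Mbp 49.0 CPM and Pecam1 36.9 CPM in library 1, all 3 genes that immune cells can also express, and the other 4 were at 3.44 CPM or less.

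Cxcr5 was highest in B cells. They held 233 UMIs or 290 CPM (254 to 330) in library 1, 91 UMIs or 130 CPM (105 to 159) in library 2 and 10 UMIs or 74.6 CPM (35.8 to 137) in library 3, a mean of 165 ± 112 CPM (SD, n = 3 libraries). CD8 T cells held 8.21, 4.70 and 3.07 CPM, a mean of 5.33 ± 2.63. B cells had the highest measured level of the gated classes in each library, although in library 3 the classes with 0 UMIs in few cells (C1q macrophages, plasma cells and NK cells) allow levels as high. The log2 difference from CD8 T cells was 4.97 (SE 0.28, edgeR adjusted p = 1.445e-13), in a comparison in which 28% of genes were called (12.6% higher in B cells, 15.5% lower). From conventional CD4 T cells B cells differed by 4.15 (SE 0.28, adjusted p = 5.519e-12), with 24.6% of genes called (10.7% higher, 13.9% lower).

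At equal depth 41 of 190 B cells (21.6%), 29 of 242 (12.0%) and 6 of 68 (8.82%) had a Cxcr5 UMI in libraries 1 to 3, against 61.8%, 27.7% and 12.2% before thinning. Median depths of B cells were 3847, 2526.5 and 1714.5 UMIs. In CD8 T cells 7 of 831 (0.842%), 6 of 991 (0.605%) and 0 of 234 thinned cells had one, the last of which allows up to 1.28%. The order of the libraries in B cells was the same with and without thinning. B cells were a small part of all cells, and they held 34.0%, 28.6% and 37.0% of the Cxcr5 UMIs of libraries 1 to 3. Conventional CD4, Foxp3, CD8 and other T cells held 29, 18, 39 and 38 of 686 UMIs in library 1, 30, 30, 22 and 28 of 318 in library 2 and 5, 1, 2 and 5 of 27 in library 3, together more than B cells in libraries 2 and 3. Unassigned cells held a further 46.4%, 29.9% and 14.8%.

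T cells held low levels of Cxcr5. In conventional CD4 T cells they were 12.8 (8.57 to 18.4), 9.64 and 12.9 CPM (4.17 to 30.0), from 29, 30 and 5 UMIs, a mean of 11.8 ± 1.84. Foxp3 T cells held 9.71, 11.2 and 3.93 CPM. The level of conventional CD4 T cells was above that of CD8 T cells in every library, but the difference of 0.82 (SE 0.34) was not called (edgeR adjusted p = 0.1635). The difference between Foxp3 and conventional CD4 T cells was -0.18 (SE 0.36, adjusted p = 0.9467), with 2.53% of genes called (1.33% higher, 1.19% lower). After thinning 1.36%, 1.11% and 0.637% of conventional CD4 T cells had a Cxcr5 UMI, close to the shares in CD8 T cells. Among thinned Foxp3 T cells 1.68%, 2.12% and 0 of 91 had one, the last of which allows up to 3.30%. B cells thus lay above conventional CD4, Foxp3 and CD8 T cells, and conventional CD4 T cells were not separated from Foxp3 or CD8 T cells at this depth.

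**Figure D5:**
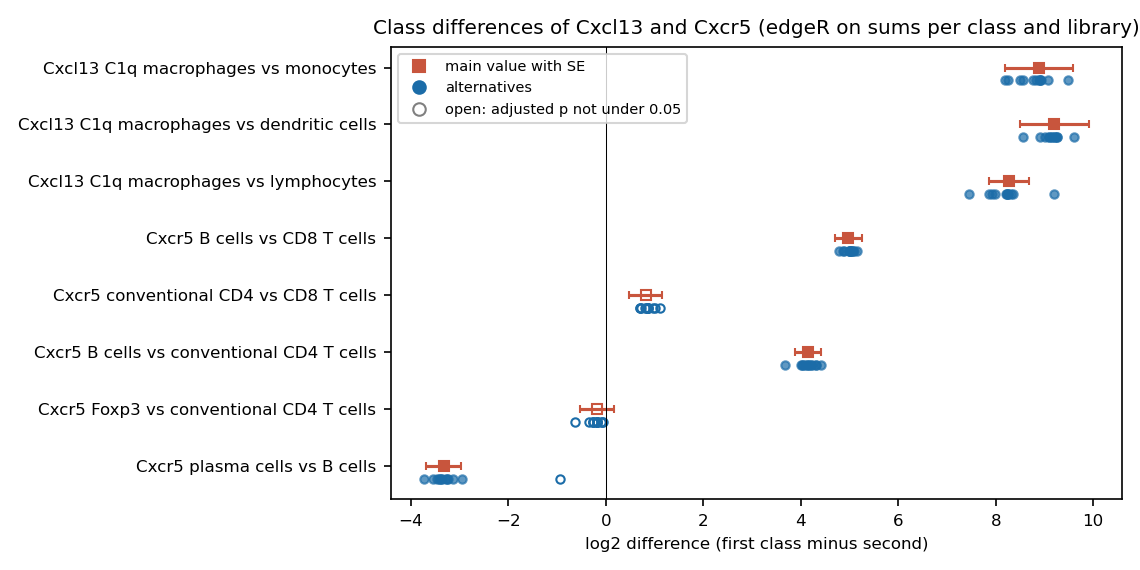
Log2 differences of Cxcl13 or Cxcr5 between cell classes from edgeR on sums per class and library (red squares with SE, filled when the adjusted p was under 0.05) and the same under each alternative (blue). Cxcr5 differs by 4.97 between B and CD8 T cells and by 0.82 between conventional CD4 and CD8 T cells, and the plasma cell difference of -3.33 moves to -0.94 in 1 alternative.

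Plasma cells, the antibody-secreting end stage of B cells, held 14.3 and 4.47 CPM of Cxcr5 in libraries 1 and 2, and library 3 had 2 plasma cells. Cxcr5 was lower in plasma cells than in B cells, with a log2 difference of -3.33 (SE 0.36, edgeR adjusted p = 5.302e-08), where 30% of genes were called (16% higher, 14% lower). Without the cells of highest UMIs the value was -0.94 (SE 0.40, adjusted p = 0.3872). The receptor moved with other follicular and memory B cell genes, of which 12 of 13 tested were lower in plasma cells (list median -3.19, against -0.115 over all genes).

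In C1q macrophages, the class with most Cxcl13, there was 1 Cxcr5 UMI among the 1508 cells of library 2 (0.0905 CPM, 0.00229 to 0.504) and 0 in the 3 cells each of libraries 1 and 3. Compared with lymphocytes the value for Cxcr5 was -6.11 (SE 0.66, edgeR adjusted p = 1.425e-08), so ligand and receptor were called in opposite directions in the same comparison. Monocytes held 0, 0.961 and 0 CPM. Plasmacytoid dendritic cells held 0 Cxcr5 UMIs in 45, 140 and 9 cells, which allows up to 6.54, 3.17 and 73.8 CPM.

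Among dendritic cells Cxcr5 was seen in mature cells, those with transcripts of migration and maturation such as Ccr7 and Fscn1. In library 2 all 10 dendritic cell UMIs were in 6 of 38 mature cells (32.6 CPM, 15.6 to 59.9) and none in the other 93, which allows up to 2.89 CPM. The highest mature cell held 4. Libraries 1 and 3 had 3 and 4 mature cells with 0 UMIs. No mature cell had a Cxcr5 UMI after thinning (0 of 36, which allows up to 8.33%), and the split was noticed in the data and not tested.

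The B cells that carried Cxcr5 as a class also held follicular B cell genes. Of 13 follicular and memory B cell genes tested, 12 were called higher in B cells than in CD8 T cells and none lower, with a median log2 difference of 2.87 against -0.07 over all genes tested, of which 12.6% were called higher and 15.5% lower. Fcer2a (CD23), a marker of follicular B cells, stood at 178, 98.5 and 119 CPM, Cr2, a complement receptor, at 84.6, 37.1 and 22.4 CPM, Ighd (immunoglobulin D) at 190, 207 and 186 CPM and Ccr7, the receptor for T cell zones, at 1628, 1110 and 1051 CPM. Ms4a1, also on the list, was part of the B cell gate. Much of the list separates B cells in general from T cells, so this comparison cannot tell follicular from other B cells. Of 19 follicle-organising genes 8 were called higher in B cells, among them Lta, Ccr7 and Gpr183 (a receptor that places B cells in follicles), and 5 lower, among them Tnf and Tnfsf11 (RANKL, a cytokine of lymphoid organ formation).

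Germinal centre genes were sparse in the same B cells. Rgs13, a regulator of G protein signalling in germinal centre B cells, held 0 UMIs in all 3 libraries. Of 7 germinal centre genes tested Mef2b (8.71, 20.0 and 0 CPM) was called higher in B than in CD8 T cells, with a difference of 5.56 (SE 0.91, adjusted p = 6.07e-05), and Fas and Mki67, a proliferation marker, were called lower. Over all genes 12.6% were called higher in B cells and 15.5% lower. The list median was -0.005 against -0.072 over all genes, so the list as a whole did not stand out. Cells with at least 3 plasma cell markers were not in this B cell class. In plasma cells 4 of the 7 (Fas, Basp1, Nuggc and Mki67) were called higher than in B cells and Bcl6 lower, where 16% of all genes were called higher and 14% lower.

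The genes most like Cxcr5 over the 26 class sums were led by Fcrl1 (r = 0.91), Fcmr (0.84), Txnip (0.81), Serpinb1a (0.79) and Bank1 (0.79), followed by Igkv17-127, Cd55, BE692007, S1pr1 and Ebf1 (0.78 each). S1pr1, the receptor for exit from tissues into lymph, is on the follicle-organising list. As for Cxcl13, the sums share libraries and the values are a description.

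Tfh genes were present in conventional CD4 T cells, whose Cxcr5 level was low. Of 14 Tfh genes tested, 9 were called higher in conventional CD4 than in CD8 T cells, with a list median of 1.19 against -0.01 over all genes, of which 5.06% were called higher. They included Cd40lg, the ligand by which T cells activate B cells, at 264, 175 and 198 CPM against 7.16, 7.05 and 1.54 CPM (4.94, SE 0.23, adjusted p = 1.837e-11). Pdcd1 was called lower (-1.27, SE 0.26, adjusted p = 0.001248). In Foxp3 T cells 8 of 14 Tfh genes were lower than in conventional CD4 T cells and none was higher (list median -0.81, against 0.003 over all genes, of which 1.19% were called lower). Tcf7, a transcription factor of stem-like T cells, had a difference of -2.33 (SE 0.21, adjusted p = 3.584e-08), while Cxcr5 did not pass the test.

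Subsets of conventional CD4 T cells were then compared, since Tfh and Tph cells are told apart by CXCR5. Cells with Pdcd1 and Icos held 15, 7 and 1 Cxcr5 UMIs, or 11.8 (6.62 to 19.5), 6.23 (2.50 to 12.8) and 10.8 CPM (0.274 to 60.3). Cells with neither held 0 (up to 26.4 CPM), 2.96 CPM (0.0749 to 16.5) and 18.0 CPM (0.455 to 100.1), from 0, 1 and 1 UMIs. Among cells with Pdcd1, those with Cxcr6 held 7.63 (2.48 to 17.8) and 2.46 CPM (0.0623 to 13.7) in libraries 1 and 2, and those without held 19.9 (10.9 to 33.4) and 7.42 CPM (2.98 to 15.3). In library 3 the subset with Cxcr6 had 9 cells and 0 Cxcr5 UMIs. Cells with Il21 held 9.52 and 4.25 CPM against 13.6 and 11.2 CPM in cells without.

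Cxcr5 was too sparse for the filter on low counts in these 3 comparisons, so its values come from fits without the filter. They were 1.14 (SE 1.36, edgeR adjusted p = 0.994) for cells with Pdcd1 and Icos against cells with neither, -1.41 (SE 0.74, adjusted p = 0.641) for Cxcr6 among cells with Pdcd1, and -0.93 (SE 0.57, adjusted p = 0.786) for Il21. With the filter 0.152% of genes were called for Pdcd1 with Icos (0.0606% higher, 0.0909% lower), 0.892% for Cxcr6 (0.488% higher, 0.404% lower) and 3.88% for Il21 (2.17% higher, 1.71% lower). Cxcr5 was lower with Cxcr6 and with Il21 in both libraries with enough cells, but none of these differences was detectable at this depth.

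Among the genes with the largest called changes in the subset comparisons, apart from those of the gates, Klf2, a transcription factor of quiescent circulating T cells, was lower in cells with Pdcd1 and Icos (-2.12, SE 0.28, adjusted p = 0.01053) and in cells with Il21 (-2.16, SE 0.15, adjusted p = 1.315e-17), as it was with Cxcr6 (-1.09, SE 0.17, adjusted p = 0.02248), and Slpi and Gm42418 were the other genes called lower with Pdcd1 and Icos. With Cxcr6, the cytotoxic lymphocyte genes Ccl5 (2.48, SE 0.10, adjusted p = 2.988e-06) and Nkg7 (1.84, SE 0.12), together with Trgv2 and Ifitm1, were higher, while Tcf7 (-1.80, SE 0.23, adjusted p = 0.00902), Ccr7, Il2, Mpeg1 and Jun were lower. With Il21, the cytokine genes Il2 (2.72, SE 0.22) and Ifng (1.64, SE 0.14, adjusted p = 1.378e-13), Dusp14 and Igfbp7 were higher, and S1pr1 (-2.34, SE 0.18), Klf3, Emb and Rflnb lower.

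The conventional CD4 T cells with a Cxcr5 UMI numbered 22, 26 and 5, and are described without a test. Their median depths of 4956, 4998 and 1527 UMIs differed from the 3031, 2558.5 and 1810 of cells without, so other genes were read after thinning. Tcf7 was detected in 7 of 21, 9 of 26 and 1 of 5 cells with Cxcr5, against 12.1%, 11.4% and 11.8% of those without. Sh2d1a, the SAP adaptor that Tfh cells need, was detected in 42.9%, 26.9% and 20% against 16.8%, 15.9% and 16.4%. Both genes were thus more frequent in the Cxcr5-positive cells of each library, although library 3 adds 1 cell to either count. Batf, also on the Tfh list, went the other way in each library by thinned share, at 9.52%, 15.4% and 0% against 17.0%, 17.6% and 21.7%. By CPM it was higher in each library, at 223, 303 and 383 against 189, 210 and 231 CPM. Its direction thus depended on the measure. In thinned shares Slamf6, Cd40lg, Cd200, Btla, Tox2, Il6ra and Maf changed direction between libraries. By CPM Slamf6 was higher in each library, at 292, 257 and 230 against 199, 146 and 168 CPM. Cd40lg was lower in each, at 154, 125 and 153 against 269, 178 and 199 CPM. Maf was lower in each too, at 318, 171 and 153 against 349, 273 and 282 CPM.

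Other genes of Tfh and Tph cells did not all go one way. Ccr2 was detected in 1 of 21, 0 of 26 and 0 of 5 Cxcr5-positive cells, against 104 of 495, 80 of 782 and 10 of 152 without Cxcr5, and Cxcr6 in 4, 0 and 0 cells against 29.9%, 15.6% and 5.26%. Pdcd1 was detected in 23.8%, 3.85% and 20% against 32.5%, 16.6% and 19.1%, and Icos in 42.9%, 46.2% and 60% against 66.7%, 48.2% and 62.5%. Il21 was detected in 9.52%, 0% and 0% against 6.87%, 8.82% and 3.29% of cells without Cxcr5. Bcl6, the defining transcription factor of Tfh cells, was detected in 0%, 0% and 40% (2 of 5 thinned cells) against 2.42%, 1.79% and 3.29% of those without. These examples were picked after the values were seen.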

How the data were processed

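The deposited values were raw UMI counts, 1 per gene and cell, which the authors made from 5′ reads with Cell Ranger and mm10 (version 5.0.1 for library 1, 6.1.2 for the others). Library 1 came without a gene list among the files used here and took that of the others. Its row totals had Spearman correlations of 0.9501 and 0.9287 with libraries 2 and 3 across genes, against 0.3619 and 0.3211 after a shift by 1 row. Cells with fewer than 300 UMIs, over 5000 genes or over 20% mitochondrial UMIs were left out. Doublets were not called. Cells with both T and B cell UMIs, or with either and at least 3 C1q UMIs, were left unassigned. The members, gates and gene lists were chosen with earlier results of these data known.

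UMIs were summed per class and library (at least 10 cells) and tested by quasi-likelihood in edgeR 4.0.16 (R 4.3.3) (TMM, filterByExpr, library as block because classes of 1 library come from the same mice, Benjamini-Hochberg adjustment over all genes, threshold 0.05). The code was tested on simulated data. Shares used cells thinned to 1000 UMIs. A UMI count of 0 was given the limit of 3 counts. Genes were named from the fixed lists, as the 10 most correlated with each member, as the 10 largest folds each way at 50 CPM or more, and as the 5 largest called changes each way in the CD4 subsets. Other genes were named after their values were seen, as said beside them. The alternatives included DESeq2 1.42.0, other filters, gates and thinning depths, no block and each library left out.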

Additional observations from a re-analysis of the deposited data

Results flagged for a closer look

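These values lie in cells that the gates left out of every class, and their cell identity was not tested. Unassigned cells that met the C1q gate but carried T or B cell UMIs held 73 Cxcl13 UMIs in library 1 (254 CPM, in 8 of 27 cells), with medians of 17 T cell and 14 C1q UMIs. In library 2 such cells held 57991 Cxcl13 UMIs (3645 CPM, in 962 of 1389 cells), with medians of 7 T cell and 166 C1q UMIs. Of the 1389 cells, 360 carried just 1 T or B cell UMI.

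Unassigned cells with both B and T cell UMIs held 301 Cxcr5 UMIs in library 1 (103 CPM, in 154 of 297 cells), with medians of 21 B and 3 T cell UMIs. In library 2 they held 44 Cxcr5 UMIs (16.1 CPM, in 32 of 178 cells), with medians of 9 B and 14.5 T cell UMIs.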

How the results depend on the processing

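The direction and call of the Cxcl13 and Cxcr5 class differences held in 101 of 102 alternatives. The exception was Cxcr5 in plasma against B cells without the cells of highest UMIs, at -0.94. The macrophage comparisons could not be made without library 2, which holds the only macrophage sum. With C1q macrophages gated on at least 10 C1q UMIs whatever their T or B cell UMIs, chosen after the data were seen, the Cxcl13 differences were 8.18, 8.55 and 7.45, all called. Library 3 was shallow, and its macrophages numbered 3, so it limits what can be said of macrophages in more than 1 mouse.

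Without the replicate block, Cxcl13 differed by 9.48, 9.60 and 9.20 between macrophages and monocytes, dendritic cells and lymphocytes, and Cxcr5 by 4.87 between B and CD8 T cells, with every call the same. Genes called numbered 160, 1118 and 3064 without the block for the 3 macrophage comparisons, 1775 for B against CD8, 252 for conventional CD4 against CD8, 1555 for B against conventional CD4, 43 for Foxp3 against conventional CD4, 1991 for plasma against B cells and 2 in each of the 3 CD4 subset comparisons. With the block they were 690, 2277, 4820, 3003, 886, 2634, 271, 3209, 5, 64 and 284. DESeq2 called 459 genes between macrophages and monocytes, 12 for Cxcr6 and 36 for Il21. Without the filter on low counts 445 genes were called for Foxp3, 82 for Pdcd1 with Icos and 268 for Cxcr6. Tolerating 1 stray lineage UMI gave 10, 164 and 163 genes for Pdcd1 with Icos, Cxcr6 and Il21. Raised gate minimums gave 53 for Pdcd1 with Icos and 2 for Il21. Without the cells of highest UMIs there were 83 for plasma against B cells and 175 for Cxcr6. Subset gates from thinned cells gave 27 for Pdcd1 with Icos and 7 for Cxcr6. Sums of at least 3 cells, added later, gave 124 for Cxcr6 and 110 for Il21. Leaving out 1 library in turn gave 1639 to 2759 genes for B against CD8, 501 to 684 for conventional CD4 against CD8, 1454 to 2401 for B against conventional CD4, 144 to 256 for Foxp3, 1214 to 3223 for plasma against B cells, 2 to 50 for Pdcd1 with Icos and 104 without library 3 for Il21. The cause of these changes was not tested.

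In the Cxcl13-positive macrophages, 10 genes were 2-fold higher when at least 3 Cxcl13 UMIs were asked for, and 3 were higher and 12 lower at a mean of 50 CPM. Igkv3-4 turned to 0.47 with the C1q gate whatever T or B cell UMIs. The share of macrophages with a Cxcl13 UMI was 42.2% at 500 UMIs, 51.1% at 2000 and 59.7% unthinned. The mean share of B cells with a Cxcr5 UMI was 25.5% at 2000 UMIs and 33.9% unthinned, and that of conventional CD4 T cells 3.19% unthinned and 1.44% with raised gate minimums. Of 637 alternative values of genes named in the macrophage comparison 505 stayed close and 131 moved without turning.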

Other observations

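Outside macrophages and unassigned cells, 2 T cells held at least 5 Cxcl13 UMIs, both in library 1. They were picked for this after the values were seen. A Foxp3 T cell held 34 Cxcl13 UMIs among 14837, with 64 UMIs of Cd3 genes, 10 of Icos and 23 of Ctla4, and 0 of C1q genes, Lyz2, Apoe and Ccl8. A further T cell held 10 among 8913, with 69 UMIs of Cd3 genes, 5 of Cd4, 11 of Cd8 genes, 15 of Pdcd1, 6 of Il10 and 1 of Il21, and again 0 of C1q genes, Lyz2, Apoe and Ccl8. In neither cell was a Cxcr5 UMI found.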
